A study of Mus musculus with 9 samples.

Results

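The erythroid globin, membrane and heme genes were 36 genes that encode the adult globin chains, the erythroid transcription factors and erythropoietin receptor, the red cell membrane, the enzymes of heme synthesis and breakdown, iron carriers and further red cell proteins. They were named as a list with the difference between 4-week-old and 12-week-old mice already known, so their values between the ages, and the number of them that passed thresholds in the fit over all genes, are given as a description and support no inference about the list, and no p-value is given for any of them. Of the 36 genes, 35 were matched to an identifier among the 39179 genes of the count files, and Ahsp, the chaperone of free alpha-globin, was not analysed here. The alpha-globin copies Hba-a1 and Hba-a2 were summed because reads may be shared between them, which left 34 rows, and 32 of these had enough counts to enter the fit over all genes.

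The RNA came from single capillaries with their surrounding cells, cut by laser microdissection (LMD) from the ossification front (OF) of the femur, the zone where growing bone is laid down beneath the growth plate. Juvenile mice were 4 weeks old (n = 5 libraries) and adult mice 12 weeks old (n = 4 libraries). Mice of both ages were Tg(TIE2GFP)287Sato/J animals of C57BL/6 origin, in which the Tie2 promoter drives GFP in endothelial cells, and the fluorescence only guided the cutting. No treatment is named for either age. Each library pooled many dissected pieces and held a mixture of cells, and the sample labels do not tie libraries to individual mice, so the spread given here is that between libraries. Libraries held 4856833 to 7398483 counts in juvenile and 5821596 to 8077362 counts in adult mice, and a floor of 3 counts corresponded to 0.371 to 0.618 CPM (counts scaled by the total of the library). Juvenile 4 and juvenile 5 had more counts of Y-linked genes than of Xist, and the other 7 libraries, all 4 adult ones included, had more of Xist. These 7 are called Xist-high.

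Red blood cells form in the bone marrow from erythroblasts, which multiply under erythropoietin, switch on the globin genes under GATA1, KLF1 and their partners, and finally lose the nucleus. Hemoglobin is assembled from paired alpha- and beta-globin chains, each of which holds a heme made in a chain of enzymes that starts and ends in the mitochondrion. The spectrin and ankyrin skeleton, tied to the anion exchanger band 3, gives the cell its shape, and marrow macrophages take up expelled nuclei and old red cells and break down their heme.

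In the fit nearly all erythroid genes were higher in adult mice, although single adult libraries lay within the juvenile range for some rows. The globins were 13.2- to 17.5-fold and the called membrane genes 21.7- to 32.4-fold higher. The iron carriers and all heme synthesis enzymes except Alas2 differed by 1.01- to 3.07-fold. Adult 4 carried much of the difference, since without it the globins were 6.72- to 9.23-fold and the same membrane genes 9.89- to 15.1-fold higher. The log2 fold change, adult over juvenile, was above 0 for 31 of 32 tested rows, with a median of 3.22, beside a median of 0.01 over all 13417 genes tested. A gene was called when its adjusted p from the edgeR quasi-likelihood test was under 0.05. By this measure 14 of 32 were called higher in adult mice, beside 1.88% of all genes tested called in that direction and 3.87% called in either. None was called higher in juvenile mice, 0 had an unadjusted p under 0.05 in that direction in edgeR and 0 were called so by DESeq2, beside 1.99% of all genes tested in edgeR. The normalised read counts of the ages did not overlap for 16 of 32 rows, all with adult libraries higher, beside 4.08% of all genes tested. In bulk samples, fewer cells of a type and less RNA per cell cannot be told apart.

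**Figure D1:**
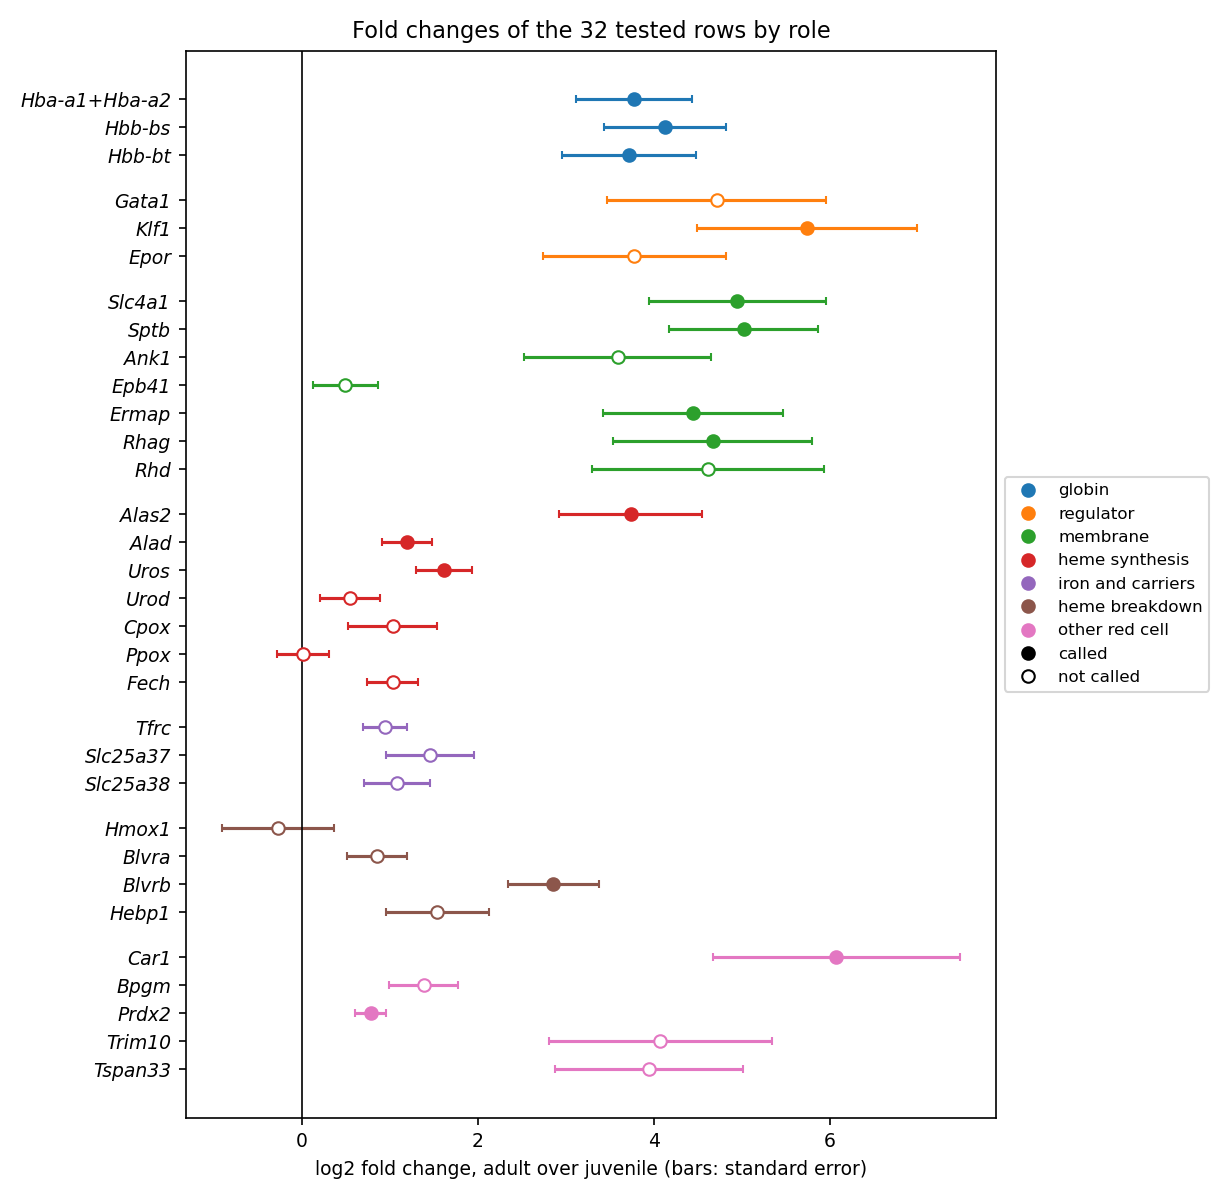
Log2 fold change, adult over juvenile, of the 32 tested rows, grouped and coloured by role, with points at the edgeR estimate and bars of 1 standard error to each side. Filled points were called in the fit over all genes. The globins lay between 3.72 and 4.13, most heme and iron genes lay nearer to 0, and Hmox1 alone lay below 0 in this fit.

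The number of calls depended on single libraries. Leaving out juvenile 2 gave 9 calls, juvenile 3, juvenile 4 or juvenile 5 gave 7 each, and adult 4 gave 6 (the 3 globin rows, Sptb, Uros and Blvrb), whereas leaving out adult 1 gave 18. The calls over all genes changed too. Of 13105 to 13861 genes tested, 168, 145, 126 and 117 were called higher in adult mice without juvenile 2 to 5. Without adult 4 there were 176, and without adult 1 there were 258. Among the 7 Xist-high libraries, 0 of 32 were called, beside 34 of all 13875 genes tested called higher in adult mice. The median log2 fold change of the listed rows was 2.96 there. Adult 4 held the highest normalised count of the 4 adult libraries for 30 of 34 rows.

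**Figure D2:**
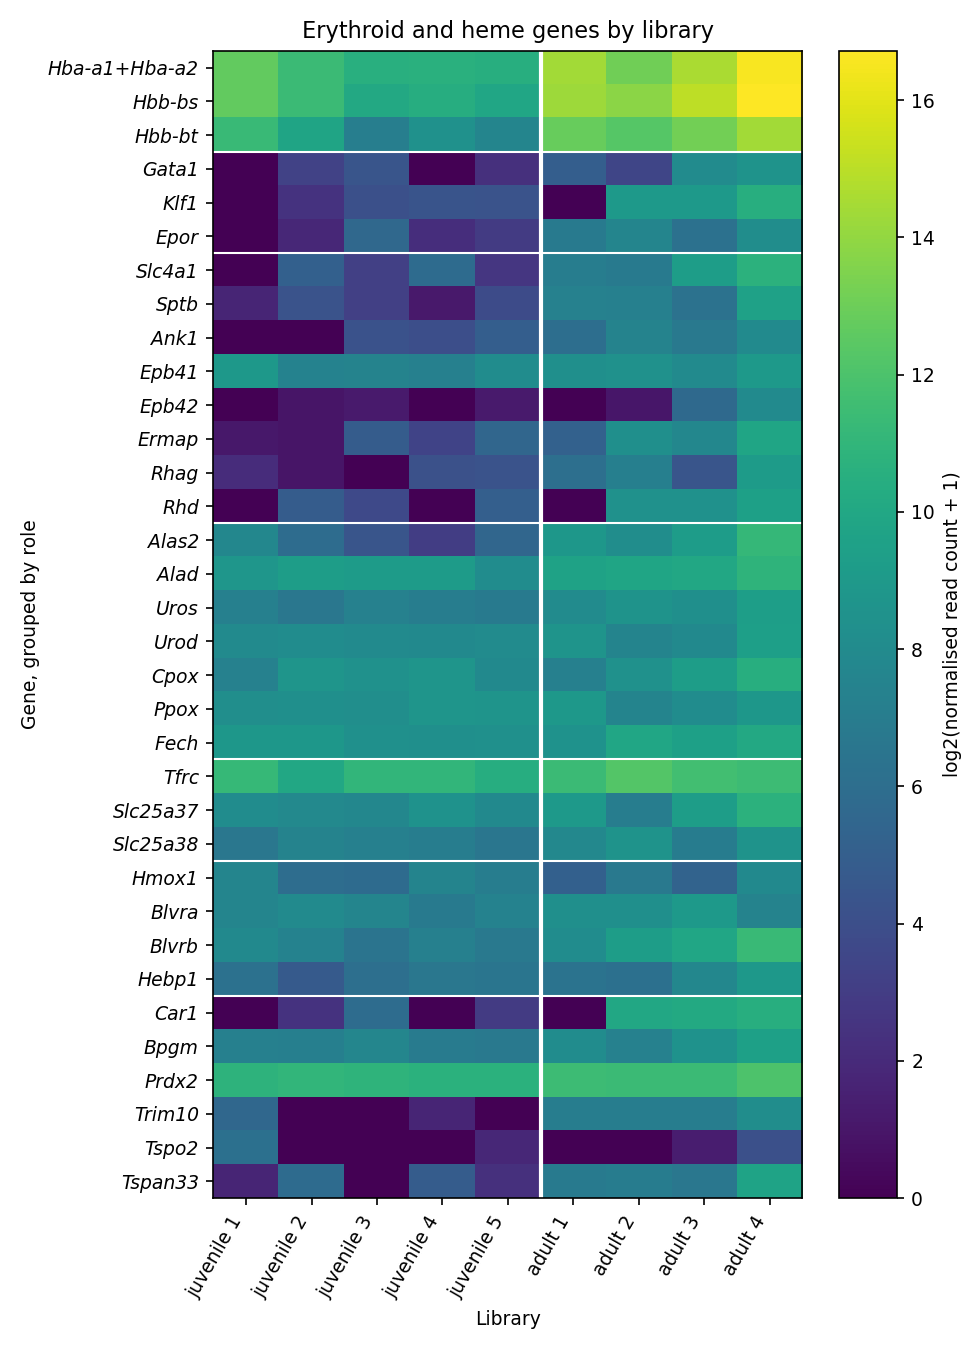
Normalised read counts of the 34 rows on a log2 scale after adding 1, one column per library and one row per gene, with white lines between ages and roles. The 3 globin rows were the brightest in every adult library, and dark cells mark counts at or near 0, as for Klf1, Car1 and Rhd in juvenile 1 and adult 1.

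The alpha-globin genes Hba-a1 (GRCm38, chr11:32283511-32284465) and Hba-a2 (chr11:32296489-32297298) and the adult beta-globin genes Hbb-bs (chr7:103826534-103828096) and Hbb-bt (chr7:103812524-103813996) encode the chains of adult hemoglobin. Each pair of copies is nearly identical in coding sequence, and the stretches around their differences are shown because they limit how reads can be assigned. Positions are counted from 1 at the first base of the start codon. Hba-a1 and Hba-a2 differed at 1 of 426 coding bases (C381T, with the base of Hba-a1 first), and Hbb-bs and Hbb-bt at 1 of 441 (C417T, with the base of Hbb-bs first). A window of 75 bases, the length of the reads, was the same in both copies for 86.9% of coding windows of the alpha pair and 93.2% of the beta pair. Over whole transcripts fewer windows were shared. The other copy held 62.2% of those of Hba-a1, 81.0% of Hba-a2, 64.3% of Hbb-bs and 56.6% of Hbb-bt. Coding bases 344 to 418 of the alpha genes and 367 to 441 of the beta genes follow, read from the GRCm38 transcripts, with the differing base in capitals.
Hba-a1: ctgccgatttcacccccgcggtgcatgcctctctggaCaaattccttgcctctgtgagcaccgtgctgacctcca
Hba-a2: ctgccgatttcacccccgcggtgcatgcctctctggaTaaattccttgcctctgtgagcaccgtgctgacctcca
Hbb-bs: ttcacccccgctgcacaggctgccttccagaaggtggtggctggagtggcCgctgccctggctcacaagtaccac
Hbb-bt: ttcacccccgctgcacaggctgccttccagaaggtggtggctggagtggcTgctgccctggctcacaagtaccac

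Alpha-globin, summed over both copies, had normalised read counts of 6707, 2642, 1489.5, 1574 and 1433 in juvenile 1 to 5 and of 21482, 8853, 24792 and 96449 in adult 1 to 4. The ages did not overlap, and juvenile 1 was the highest juvenile and adult 4 the highest adult library. The log2 fold change was 3.77 (SE 0.66). Hbb-bs had 6537, 2744, 1067, 1378 and 935 normalised counts in the juvenile and 19969, 14600, 34815 and 108009 in the adult libraries, again without overlap and with a log2 fold change of 4.13 (SE 0.69). Hbb-bt, the lower of the beta copies in every library, had 2565, 855, 143, 345 and 193 in the juvenile and 7395, 5098, 9342 and 21387 in the adult libraries, with a log2 fold change of 3.72 (SE 0.76). All 3 globin rows were called. Counted separately, Hba-a1 and Hba-a2 had log2 fold changes of 3.66 (SE 0.74) and 4.27 (SE 0.73), and the summed beta copies 4.04 (SE 0.70), each called. The share of alpha-globin counts assigned to Hba-a2 ranged from 0.821% in juvenile 2 to 39.4% in adult 2. What this share and the order of Hbb-bs and Hbb-bt say of the copies is limited by the windows each pair shares.

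Globin counts made up 0.243%, 0.0933%, 0.0416%, 0.0479% and 0.0385% of all counts in juvenile 1 to 5 and 0.834%, 0.468%, 1.14% and 3.99% in adult 1 to 4. The lowest adult share lay above the highest juvenile share. Wilson 95% intervals reached at most 4.47% of the value to either side and cover counting error only, since amplified reads without molecular identifiers are not independent molecules. The summed alpha-globin row ranked 55th to 549th among the genes of the juvenile libraries by counts and 4th to 39th in the adult libraries. The other 31 rows together made up 0.0921% to 0.122% of counts in juvenile and 0.193% to 0.568% in adult libraries, so that globins were 27.1% to 66.6% of the listed genes' counts in juvenile and 63.7% to 87.5% in adult libraries. Alpha-globin was 42.3% to 55.9% of globin counts in juvenile and 31.01% to 44.0% in adult libraries, and these ranges overlapped.

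**Figure D3:**
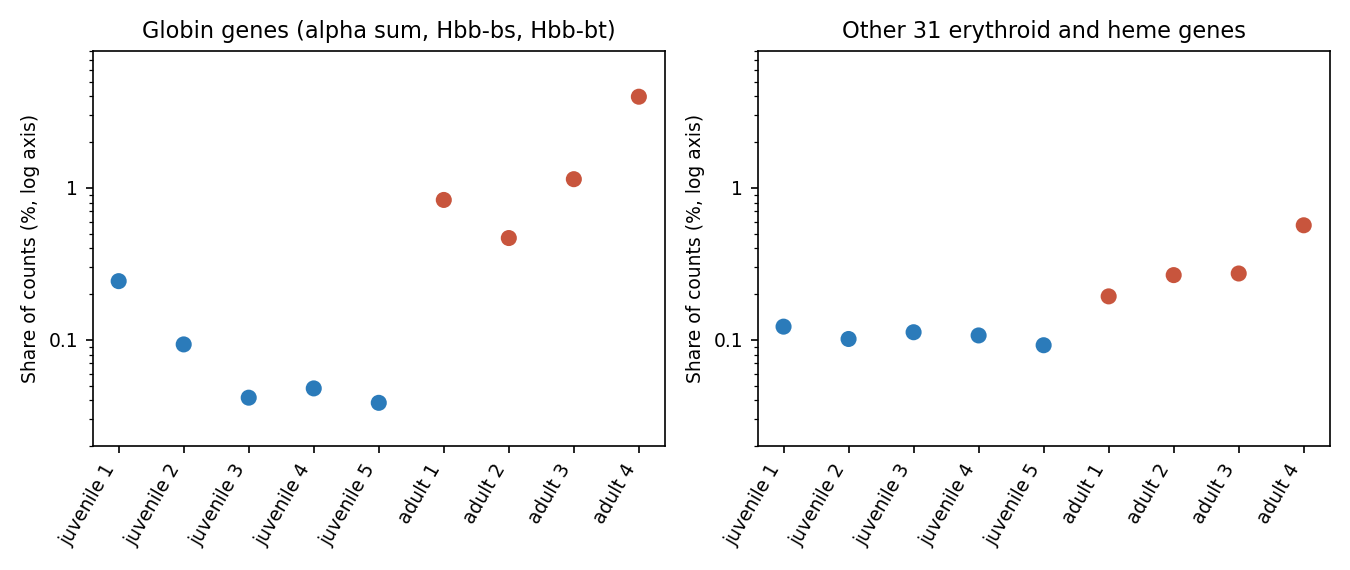
Share of all counts of each library (percent, log axis) on the globin rows at left and on the other 31 erythroid and heme rows at right, 1 point per library, juvenile in blue and adult in red. The globin share spanned 0.0385% to 0.243% in juvenile and 0.468% to 3.99% in adult libraries, and the share of the other genes spanned a narrower range in both ages.

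Promoter sequence was described because many of the listed genes are known targets of GATA1 and KLF1. Windows from 250 bases before to 50 bases after the start (RefSeq, GRCm38.p6) were given for 29 of the 35 matched genes. A GATA motif (AGATAA or TGATAA) on either strand occurred in 13 of these 29 genes (44.8%), beside 21.0% of all 27025 genes with a window. A CACCC box (CCACCC) occurred in 16 (55.2%), beside 34.1% of all genes, and both motifs occurred in 8 (27.6%), beside 5.07%. No GATA match overlapped a CACCC match in the stretches printed, and a match is a description of letters and not a binding site. The 8 genes with both were Alas2, Epor, Ermap, Hba-a1, Hba-a2, Klf1, Rhag and Trim10. Stretches upstream of the start are shown for 7 of them, all but the alpha-globin copy Hba-a1, with the GATA motif (TTATCT or TTATCA where it lies on the other strand) and the CACCC box (GGGTGG on the other strand) in capitals. For Klf1 and Alas2 the CACCC box lay outside the stretch printed.
Hba-a2, chr11:32296289-32296488, plus strand: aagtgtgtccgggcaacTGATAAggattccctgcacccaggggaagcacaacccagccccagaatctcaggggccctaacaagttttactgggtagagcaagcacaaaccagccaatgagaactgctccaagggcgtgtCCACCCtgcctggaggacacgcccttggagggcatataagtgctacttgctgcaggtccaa
Klf1, chr8:84901732-84901927, plus strand: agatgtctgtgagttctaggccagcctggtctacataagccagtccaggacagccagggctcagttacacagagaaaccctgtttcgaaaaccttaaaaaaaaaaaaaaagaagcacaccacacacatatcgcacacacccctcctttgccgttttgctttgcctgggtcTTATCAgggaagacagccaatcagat
Epor, chr9:21963577-21963776, minus strand: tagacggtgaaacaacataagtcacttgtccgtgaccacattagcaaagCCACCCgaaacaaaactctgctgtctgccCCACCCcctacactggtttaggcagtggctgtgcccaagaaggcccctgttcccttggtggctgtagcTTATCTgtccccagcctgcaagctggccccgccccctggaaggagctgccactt
Ermap, chr4:119190012-119190211, minus strand: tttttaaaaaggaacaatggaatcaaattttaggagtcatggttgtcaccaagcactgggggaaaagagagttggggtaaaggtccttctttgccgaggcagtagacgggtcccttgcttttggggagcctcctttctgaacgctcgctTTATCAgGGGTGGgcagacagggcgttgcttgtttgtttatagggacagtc
Rhag, chr17:40810926-40811125, plus strand: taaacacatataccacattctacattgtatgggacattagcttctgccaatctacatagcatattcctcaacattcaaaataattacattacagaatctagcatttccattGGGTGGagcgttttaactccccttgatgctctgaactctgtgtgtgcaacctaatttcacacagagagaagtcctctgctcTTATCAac
Alas2, chrX:150547175-150547374, plus strand: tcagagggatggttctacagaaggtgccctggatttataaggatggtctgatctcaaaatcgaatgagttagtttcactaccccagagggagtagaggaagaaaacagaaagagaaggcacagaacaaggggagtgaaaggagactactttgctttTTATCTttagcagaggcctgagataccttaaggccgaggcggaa
Trim10, chr17:36869374-36869573, plus strand: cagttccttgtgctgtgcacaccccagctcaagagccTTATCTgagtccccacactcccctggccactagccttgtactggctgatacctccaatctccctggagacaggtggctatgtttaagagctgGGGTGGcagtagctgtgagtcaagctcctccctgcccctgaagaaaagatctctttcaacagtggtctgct

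Among the regulators, Klf1 was called, and Gata1 and Epor were not. This depended on the tool, since DESeq2 called all 3 and limma voom called Epor but neither Klf1 nor Gata1. Klf1 was called in 14 of the 22 alternatives that tested it, and Gata1 and Epor in 4 of 22 each. Klf1 (chr8:84901928-84905291), an erythroid zinc finger factor that activates the beta-globin gene, had normalised counts of 0, 4.52, 16.0, 18.8 and 18.6 in the juvenile and 0, 510.4, 494.7 and 1435 in the adult libraries. Adult 1 was therefore as low as juvenile 1, and the ages overlapped, with a log2 fold change of 5.74 (SE 1.25). Gata1 (chrX:7959260-7978071), the GATA factor of the erythroid and megakaryocyte lineages, had 0, 9.04, 20.04, 0 and 3.99 in the juvenile and 31.2, 10.5, 267.9 and 390.0 in the adult libraries. Adult 2 lay below juvenile 3, and the log2 fold change was 4.71 (SE 1.25). Epor (chr9:21958897-21963506), the receptor for erythropoietin, had 0, 2.71, 49.4, 3.53 and 6.65 in the juvenile and 111.7, 197.1, 75.3 and 293.3 in the adult libraries, without overlap and with a log2 fold change of 3.78 (SE 1.04).

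Of the 8 membrane genes, 4 were called higher in adult mice, 3 were not called, and Epb42, which encodes protein 4.2, was not tested because it reached the count filter in too few libraries. Of the 4 called, limma voom kept only Sptb and called Ank1 as well, and DESeq2 called Ank1 and Epb42 in addition. In the 22 alternatives that tested them, Sptb was called in 19, Slc4a1 in 15, Ermap in 14 and Rhag in 12. Slc4a1 (chr11:102348824-102366203), which encodes the anion exchanger band 3, had 0, 34.3, 8.02, 55.4 and 5.32 normalised counts in the juvenile and 135.7, 117.4, 626.7 and 1724 in the adult libraries. Its ages did not overlap, and the log2 fold change was 4.95 (SE 1.01). Sptb, the erythroid beta-spectrin, ranged from 1.18 to 18.1 in juvenile and from 76.9 to 749.3 in adult libraries, with a log2 fold change of 5.02 (SE 0.84). Rhag, the Rh-associated glycoprotein, ranged from 0 to 18.6 and from 20.2 to 569.3, with a log2 fold change of 4.67 (SE 1.13). Ermap, an erythroid membrane protein of the immunoglobulin superfamily, was also called (4.44, SE 1.02), although adult 1 at 34.8 lay below juvenile 5 at 45.2.

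The 3 membrane genes that were not called differed in how they varied. Ank1, the erythroid ankyrin that ties spectrin to band 3, had 0 to 30.6 normalised counts in juvenile and 63.8 to 253.2 in adult libraries without overlap (log2 fold change 3.59, SE 1.06). Rhd, which encodes the Rh blood group protein, was at 0 in juvenile 1, juvenile 4 and adult 1 and at 343.8 to 730.5 in the other 3 adult libraries (4.62, SE 1.32). Epb41, which encodes the skeletal protein 4.1R and is used by many cell types, ranged from 152.0 to 488.2 in juvenile and from 252.4 to 507.9 in adult libraries (0.50, SE 0.37). Epb42 had at most 1.34 in the juvenile libraries and 0, 1.05, 52.0 and 254.8 in adult 1 to 4.

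Of the 7 heme synthesis enzymes, Alas2, Alad and Uros were called higher in adult mice, each without overlap, and Urod, Cpox, Ppox and Fech were not called. DESeq2 and limma voom called Fech as well. Alas2 (chrX:150547375-150570638), the erythroid form of the enzyme of the committed step, had 209.4, 57.9, 20.04, 7.07 and 43.9 normalised counts in the juvenile and 462.1, 295.6, 598.7 and 2272 in the adult libraries. Juvenile 1 was the highest juvenile and adult 4 the highest adult library, as for the globins, and the log2 fold change was 3.74 (SE 0.82). Alad, the next enzyme of the chain, ranged from 276.7 to 626.5 in juvenile and from 808.9 to 1839 in adult libraries (1.19, SE 0.29). Uros, which closes the tetrapyrrole ring, ranged from 97.6 to 163.0 and from 269.1 to 661.3 (1.62, SE 0.32). The later enzymes overlapped between the ages, with log2 fold changes of 0.55 (SE 0.34) for Urod, 1.03 (SE 0.50) for Cpox, 0.02 (SE 0.29) for Ppox and 1.03 (SE 0.29) for Fech, which inserts the iron. Fech had 320.4 to 453.8 normalised counts in the juvenile libraries, and 362.0 in adult 1 against 711.3 to 1079.6 in the other adult libraries.

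The order of the enzymes by median level, in CPM per kilobase of merged exons, differed between the ages, but not every juvenile library followed it. In juvenile 1 Alas2 was at 13.4, above Ppox at 10.5, Uros at 6.62, Fech at 5.03 and Cpox at 3.68. In juvenile libraries the median level of Alas2, at 2.75, was the lowest of the 7, and Alad was the highest at 45.7, with Urod at 14.9, Ppox at 10.8, Cpox at 8.01, Uros at 5.60 and Fech at 3.68 between them. In adult libraries Alad was again the highest, at 86.6, and Alas2 was next at 37.0, followed by Urod at 20.9, Uros at 16.1, Ppox at 14.3, Cpox at 12.4 and Fech at 9.83. Exons of Alas2 overlapped those of Apex2 on the opposite strand over 12.9% of their length, and those of Ppox overlapped B4galt3 over 17.5%. Without strand in the counting, which is not given in the sources used here, reads of such partners cannot be told apart.

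Of the 3 iron and mitochondrial carrier genes, 0 were called in edgeR, where 3 had an unadjusted p under 0.05, and 3 were called by DESeq2, all with adult libraries higher. Tfrc, the transferrin receptor that brings iron into dividing cells, had 2334, 1034, 2037, 2083 and 1370.2 normalised counts in the juvenile and 2704, 4805, 3255 and 2880.15 in the adult libraries, without overlap (log2 fold change 0.95, SE 0.25). Its highest adult value was in adult 2, not in adult 4. Slc25a37, which encodes the mitochondrial iron importer mitoferrin-1, was at 135.2 in adult 2, below every juvenile library, and at 526.0 to 1682 in the other adult libraries (1.46, SE 0.50). Slc25a38, a mitochondrial glycine carrier for heme synthesis, overlapped between the ages (1.09, SE 0.37).

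Of the 4 genes of heme breakdown and binding, only Blvrb was called. Blvrb, a biliverdin reductase abundant in red cells, had 240.1, 172.7, 85.5, 154.3 and 109.1 normalised counts in the juvenile and 285.1, 643.6, 962.1 and 2531 in the adult libraries, without overlap and with a log2 fold change of 2.86 (SE 0.52). Hmox1, the inducible heme oxygenase that macrophages use to open the heme ring, had 195.7, 62.4, 56.1, 182.6 and 135.7 in the juvenile and 34.1, 106.9, 38.8 and 240.6 in the adult libraries. The adult values of Hmox1 spanned the whole juvenile range, and its log2 fold change was -0.27 (SE 0.63). Blvra, the other biliverdin reductase, had a log2 fold change of 0.85 (SE 0.34) and was lowest in adult 4 among the adult libraries, at 176.1. Hebp1, a heme-binding protein, had 1.54 (SE 0.59), with juvenile 2 at 26.2 and adult 4 at 472.6 as its extremes.

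Among the other red cell genes, Car1 and Prdx2 were called and differed in size. Car1 (chr3:14766216-14808368), a carbonic anhydrase of red cells, had 0, 4.52, 58.8, 0 and 6.65 normalised counts in the juvenile and 0, 1065, 1123 and 1424 in the adult libraries. Adult 1 was at 0 and the other adult libraries lay within 1.5-fold of each other, and the log2 fold change was 6.07 (SE 1.40). DESeq2 and limma voom did not call Car1, which was called in 10 of the 21 alternatives that tested it. Prdx2, a peroxidase abundant in red cells and present in most cells, ranged from 1660.2 to 2067 in juvenile and from 2646 to 4279 in adult libraries without overlap (0.78, SE 0.18). Trim10, an erythroid RING finger protein, was at 0 in 3 juvenile libraries, at 47.8 in juvenile 1 and at 132.1 to 288.6 in the adult libraries (4.07, SE 1.27). Tspan33, a tetraspanin of erythroid progenitors, ranged from 0 to 57.0 and from 97.8 to 821.7 without overlap (3.94, SE 1.06). Bpgm, the enzyme that makes 2,3-bisphosphoglycerate, overlapped between the ages (1.39, SE 0.39). Tspo2, an erythroid relative of the translocator protein, was not tested. It had 70.6 normalised counts in juvenile 1, 2.66 in juvenile 5 and 0 in the other juvenile libraries, against 15.7 in adult 4 and at most 1.55 in the other adult libraries.

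Libraries with many globin counts did not all hold the other erythroid genes in the same proportion. Per 10000 globin counts, Alas2 lay at 94.6, 103.5, 86.8 and 100.6 in adult 1 to 4, a narrow range, and from 21.4 to 171.4 in the juvenile libraries. Klf1, Epb42, Rhd and Car1 were at 0 both in juvenile 1 and in adult 1, which held 13891 and 67331 globin counts. Juvenile 4 was also at 0 for Epb42, Rhd and Car1, and Epb42 had at most 1 count in every juvenile library and in adult 2. With counting error only considered, a count of 0 allows up to 0.446 per 10000 globin counts in adult 1, whereas Klf1 lay at 178.8, 71.7 and 63.5 in adult 2 to 4, and Car1 at 373.0, 162.9 and 63.1. In juvenile 1 a count of 0 allows up to 2.16 per 10000, and Klf1 lay at 7.24 to 72.7 in the other juvenile libraries. Gata1 and Slc4a1, at 0 in juvenile 1, were at 6.39 and 27.8 per 10000 in adult 1. Of the 34 rows, 8 were at 0 in juvenile 1 and 5 in adult 1, against 1 to 5 in the other juvenile and 0 to 1 in the other adult libraries. With adult 1 and juvenile 1 both left out, a pair chosen after seeing the data, 15 of 32 rows were called. Beside them, 211 of all 13638 genes tested were called higher in adult mice. Of the 15 rows, 11 were also called with all libraries. Alad, Prdx2 and Rhag lost the call, and Fech, Rhd, Tfrc and Trim10 gained it.

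**Figure D4:**
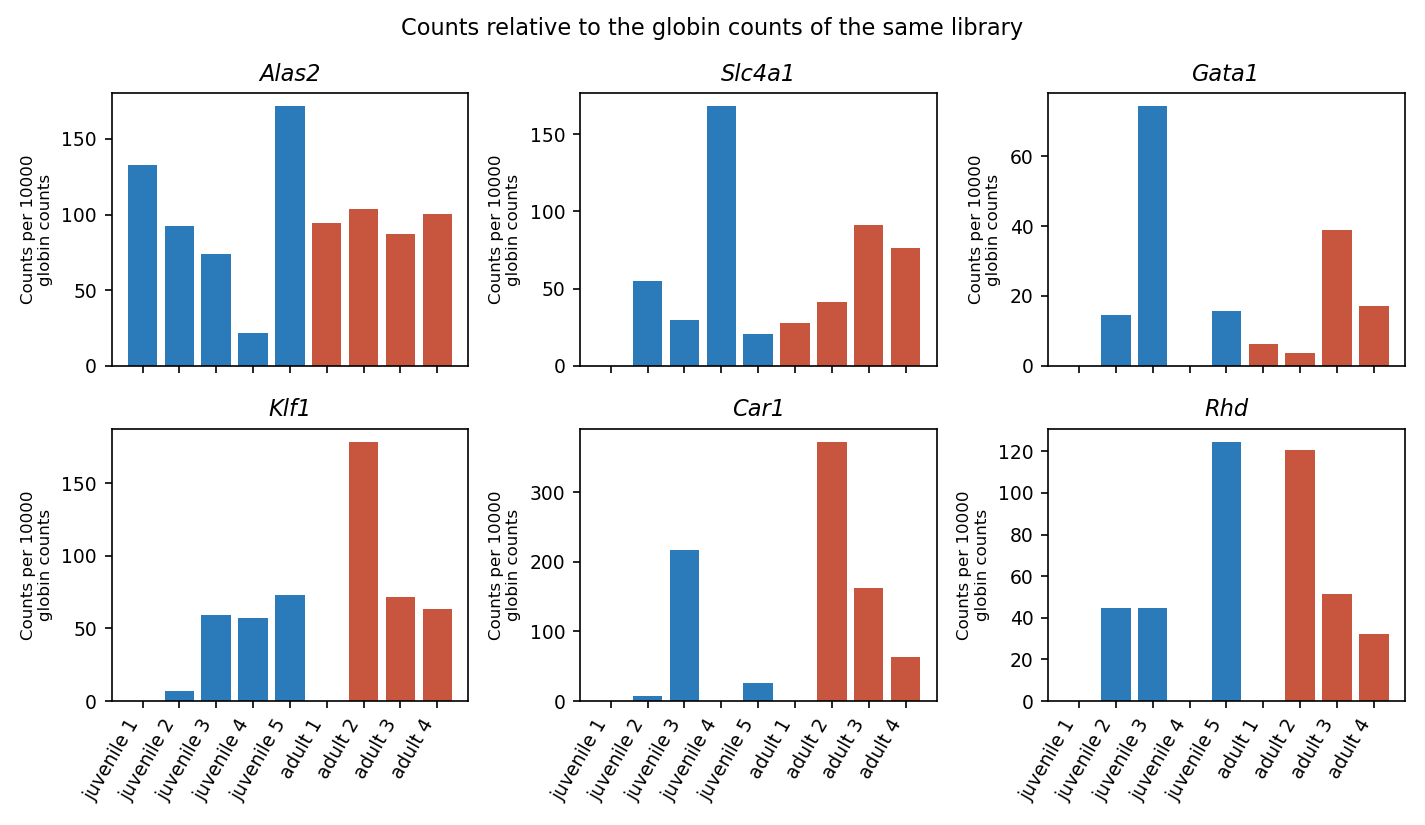
Counts of 6 genes per 10000 globin counts of the same library, juvenile in blue and adult in red, 1 bar per library, each panel on its own linear scale from 0. Alas2 lay between 86.8 and 103.5 in all adult libraries, whereas Klf1, Car1 and Rhd had no bar in juvenile 1 and adult 1. Car1 and Rhd had none in juvenile 4 either.

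A further 70 genes of the same pathways that were not on the list were tested in the same fit. They too were chosen with earlier results of these data known, so their calls and p-values are a description and no independent support for the list. Of the 59 with enough counts, 14 were called higher in adult mice, beside 1.88% of all genes tested, and 0 were called higher in juvenile mice by edgeR or DESeq2, with 2 at an unadjusted p under 0.05 in that direction, Aco1 and Jak2, both named here after their values were seen. Of these 14, Hbq1b and Kel had 0 counts in every juvenile library. They passed the count filter through the adult libraries only and could only be called higher there, so no p-value is given for them. The median log2 fold change of the 59 was 0.95, also with genes at 0 in every juvenile library set to their bound, beside 0.01 over all genes. The calls fell to 9, 8 and 7 without juvenile 3, juvenile 4 and juvenile 5 and to 6 without adult 4, and 1 was left, Cd47, among the 7 Xist-high libraries.

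Of the globins outside the adult set, the embryonic genes Hbb-y, Hbb-bh1 and Hba-x had 0 counts in all 9 libraries. Hbq1b, a theta-globin, had 0 counts in every juvenile library and 39.2, 32.5, 107.9 and 95.9 normalised counts in the adult libraries. It was at least 115-fold higher in adult mice, taking 3 counts over all juvenile libraries as the floor.

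Of the 12 membrane partners tested, 5 rose with age. Kel, the Kell blood group protein, had 0 counts in every juvenile library and 50.3 to 588.9 normalised counts in adult libraries, at least 325-fold higher by the same floor. Adult 4 held 749 of its 977 counts, and without adult 4 the bound was 101-fold. Cd47, a surface protein of most cells that restrains uptake by macrophages, ranged from 636.1 to 936.5 and from 1296 to 1786 normalised counts (log2 fold change 1.10, SE 0.18, edgeR adjusted p = 0.00591). Stom, which encodes stomatin, also rose (2.26, SE 0.49, edgeR adjusted p = 0.0236), but lost the call without juvenile 4, juvenile 5 or adult 4 (edgeR adjusted p = 0.0664, 0.0693 and 0.0586).

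Of the 22 heme and iron partners, 2 rose. Fth1, the ferritin heavy chain that most cells use to store iron, ranged from 3532 to 6594 and from 8478 to 14118 normalised counts (log2 fold change 1.13, SE 0.20, edgeR adjusted p = 0.00903). Alas1, the form of the committed enzyme used outside the erythroid lineage, did not pass the test (0.90, SE 0.42, edgeR adjusted p = 0.297), beside 3.74 for Alas2.

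Of the 15 regulators tested, Myb and Lmo2 rose, the latter named after its values were seen. Myb, a factor of dividing blood progenitors, had 0 to 10.8 normalised counts in juvenile and 88.5 to 214.7 in adult libraries (5.58, SE 1.13, edgeR adjusted p = 0.0173). Without juvenile 3 the call of Myb was lost (edgeR adjusted p = 0.0505), and without juvenile 2 its log2 fold change was 8.23. Tal1, a partner of GATA1, ranged from 1.18 to 100.1 and from 113.2 to 584.2 without overlap, yet did not pass the test (2.80, SE 0.79, edgeR adjusted p = 0.0697). Of the 6 terminal maturation genes tested, Mkrn1 (1.34, SE 0.29, edgeR adjusted p = 0.0218) and Ube2l6, also named after its values were seen, rose. Of the 3 red cell enzymes tested, Gpx1, a glutathione peroxidase of many cell types, ranged from 1658 to 3823 and from 5174 to 14319.8 (1.91, SE 0.31, edgeR adjusted p = 0.00585), and Car2, a carbonic anhydrase of red cells and osteoclasts, rose as well (2.09, SE 0.44, edgeR adjusted p = 0.0194). Mkrn1 lost the call without juvenile 4, juvenile 5 or adult 4 (edgeR adjusted p = 0.0537 to 0.0599), and Car2 without adult 4 or any juvenile library but juvenile 1 (0.0531 to 0.0581). Lmo2 lost it without juvenile 3, juvenile 5, adult 3 or adult 4 (0.074 to 0.104) and Ube2l6 without adult 1, adult 4 or any juvenile library but juvenile 1 (0.0525 to 0.085).

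Markers of some other marrow cells also differed between the ages in the same libraries. The calls counted in the marker lists here and below stand beside 1.88% of all genes tested called higher in adult and 1.99% in juvenile mice. The 8 neutrophil genes summed to 5.78 to 58.3 CPM in juvenile and 95.7 to 4632 CPM in adult libraries, and 8 of 8 were called higher in adult mice. The 6 megakaryocyte and platelet genes summed to 11.8 to 25.4 and 64.8 to 4704 CPM, with 1 of 3 tested genes called and Gp9 among those at 0 in all juvenile libraries. Among the adult libraries the neutrophil sum was lowest in adult 2 and highest in adult 1, the megakaryocyte sum was lowest in adult 3 and highest in adult 4, and the globin share was lowest in adult 2 and highest in adult 4. Macrophage genes summed to 439 to 784 and 1040 to 1794 CPM with 1 of 7 called, Csf1r (log2 fold change 1.03). Csf1r and Cd68 had the highest mean counts of that list, Cd68 at 0.55. C1qa, C1qb and C1qc, at 4.61, 4.09 and 4.02, did not pass the test (edgeR adjusted p = 0.0814, 0.0512 and 0.0969). Nor did Adgre1 and Mrc1, at 2.48 and 0.64. All 7 were named after their values were seen. Genes of the macrophages at the centre of erythroblastic islands summed to 137 to 209 and 360 to 516 CPM. Of these, 2 of 6 were called, Vcam1 and Maf, both higher in adult mice and named after their values were seen. Maf and Vcam1 had the highest mean counts of that list in adult libraries. Mertk, Siglec1, Cd163 and Spic of the same list did not pass the test, at log2 fold changes of -1.07, -0.36, 0.47 and 3.31 (Spic edgeR adjusted p = 0.0512). Whether the sum reflects the number of such macrophages was not tested.

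**Figure D5:**
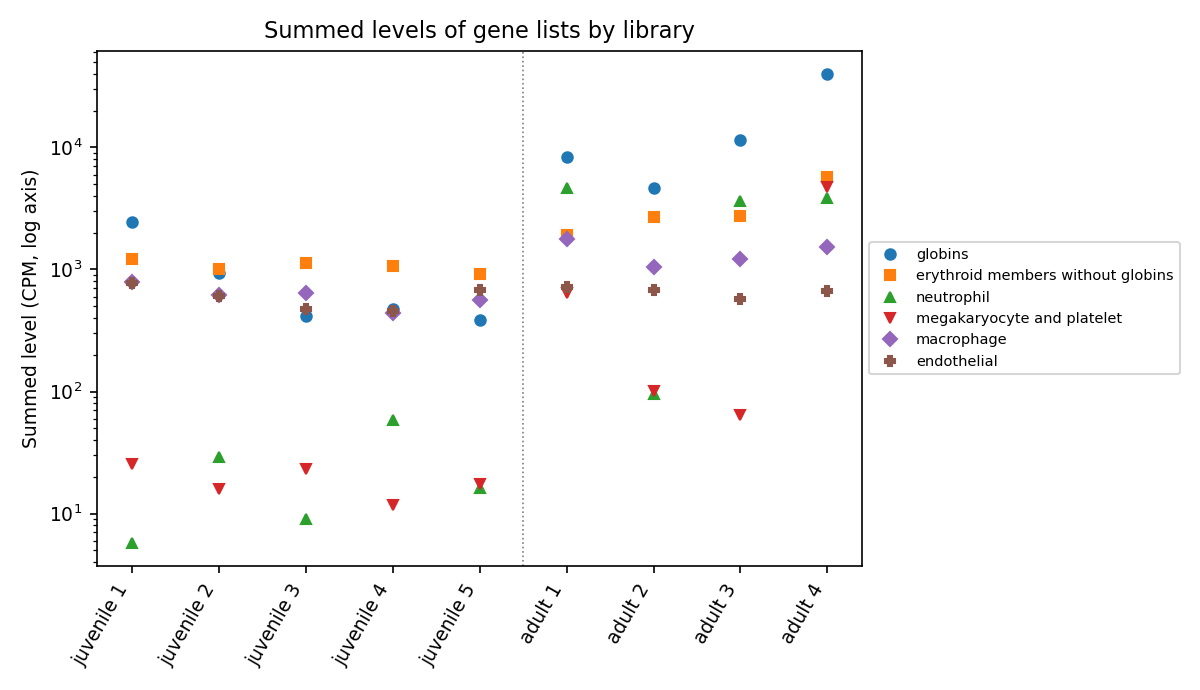
Summed CPM (log axis) of the globins, the other erythroid and heme genes and 4 marker lists in each library, juvenile at left and adult at right of the dotted line, 1 symbol per list and library. The neutrophil and megakaryocyte sums were at most 58.3 CPM in every juvenile library, and the endothelial sum lay between 461 and 775 CPM throughout.

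B lineage genes summed to 0.342 to 17.2 and 1.72 to 162 CPM, and 0 of 5 were called by edgeR, with 2 at an unadjusted p under 0.05 and 2 called by DESeq2. Mast cell and basophil genes were at 0 in every juvenile library and reached 21.9 CPM in adult libraries, and T cell genes reached 1.49 and 17.1 CPM, with none of either list tested. Endothelial genes, the labelled cell type, were detected in every library at a sum of 461 to 775 and 572 to 724 CPM, and 0 of 7 were called by edgeR or DESeq2, with 0 at an unadjusted p under 0.05. Osteoblast genes summed to 88071 to 105465 and 34511 to 48273 CPM, with 4 of 7 called higher in juvenile mice. Of the remaining lists, marrow stroma had 1 of 4 called in each direction, chondrocytes 1 of 3 and osteoclasts 1 of 5, both higher in adult mice, at sums of 203 to 291 and 264 to 1085 CPM, 329 to 937 and 606 to 4139 CPM, and 11626 to 19689 and 17919 to 26211 CPM. The part of these cells in the values of the erythroid genes was not tested.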

How the data were processed

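RNA from laser-microdissected capillaries and surrounding cells of 5 juvenile and 4 adult libraries was amplified with SMART-Seq v4, made into Nextera XT libraries and sequenced as 75 bp paired-end reads. The deposited files hold raw read counts per Ensembl gene, which the authors made with TopHat2 and Bowtie2 on mm10, and featureCounts is named in the submitters' processing notes. The annotation release and the strand setting are not given in the sources used here. Columns of other samples in the files numbered 0.

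Identifiers were matched to symbols for 37607 of 39179 genes, and the matched genes took 99.3% or more of every library's counts. The alpha-globin copies were summed, genes were kept by filterByExpr, totals were scaled by TMM and the ages compared with the quasi-likelihood test of edgeR 4.0.16 in R 4.3.3, with age as the only term and Benjamini-Hochberg adjustment over all 13417 genes tested at 0.05. The authors used DESeq2, which was run as an alternative (1.42.0), and limma 3.58.1 was run as another. Normalised read counts are counts scaled to the geometric mean effective library size. Tested on simulated counts of 13417 genes for this comparison, it called 10 of 66 genes changed 2-fold, 33 of 67 changed 4-fold, 53 of 67 changed 8-fold and 10 of 13217 unchanged ones. The changed genes of the simulation were drawn from all genes tested, and the listed rows varied more. Their median SD of log2 CPM was 0.89 in juvenile and 1.26 in adult libraries, beside 0.51 and 0.70 over all genes tested. The simulated rates therefore do not describe the listed rows. No library pair agreed within sampling noise. The members and all gene lists were chosen with earlier results of these data known. Named were every member, partner genes past the threshold (at most 10 per direction by adjusted p) and, whatever their value, Alas1, Tal1, Hbb-y, Hbb-bh1, Hba-x and 3 genes that are not reported here. Alternatives changed the scaling, filter, tool, globin copies, depth, replicate block and libraries. Sequences were read from RefSeq promoter windows (GRCm38.p6) and from GRCm38 transcripts. Of Fech, which is on chromosome 18, none was printed.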

Additional observations from a re-analysis of the deposited data

Results flagged for a closer look

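Single libraries stood apart from the others of their age, by a gap to the next library that took up most of the group's spread, in 11 of 76 groups checked. For independent groups chance alone would give about 3.8. The groups were not independent, since they share the same 9 libraries and the globin share is part of the share on all rows. Several flagged values were also counts of 0, so 11 cannot be compared with 3.8. On a log2 CPM scale with a prior count of 2, adult 1 was low for Klf1 at -1.69 (other adult libraries 6.31 to 7.84), for Rhd at -1.69 (5.78 to 6.87) and for Car1 at -1.69 (7.41 to 7.83), each at a count of 0. Adult 4 was high for Prdx2 at 9.41 (8.72 to 8.79), for Trim10 at 5.53 (4.42 to 4.43) and for Tspan33 at 7.04 (3.99 to 4.36).

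Juvenile 1 was high for Trim10 at 2.99 (other juvenile libraries -1.69 to -0.54) and for Tspo2 at 3.53 (-1.69 to -0.44). Juvenile 2 was low for Hebp1 at 2.17 (3.51 to 3.99). The share of counts on globins was 0.243% in juvenile 1 (0.0385% to 0.0933% in the others), and the share on all 34 rows was 0.366% (0.131% to 0.195%).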

How the results depend on the processing

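Over 23 alternatives, 30 of 32 tested rows had adult-higher log2 fold changes in every alternative that tested them, the exceptions being Ppox, at -0.21 to 0.24, and Hmox1, at -1.07 to 0.23 and above 0 in 4 of 23. DESeq2 called 770 genes higher in adult and 719 in juvenile mice over the whole table, 22 listed genes and 24 partner genes, against 252, 267, 14 and 14 in edgeR. A minimum of 10 counts in every library removed the genes that were near 0 in juvenile mice and gave a median log2 fold change of 1.10 over 19 rows. Among the 7 libraries in which Xist exceeded the Y-linked genes, the calls fell to 34 and 45 genes, 0 listed genes and 1 partner gene. Leaving out adult 4 and juvenile 1 together, an alternative chosen after seeing the data, gave 138 and 148 genes, 6 listed genes, 6 partner genes and a median of 2.29. The cause was not tested. Of the values of named partner genes under the alternatives, 256 kept direction and call, 56 lost the call and 4, all of Tal1, gained it.

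Leaving out each library in turn gave 117 to 344 genes higher in adult and 145 to 307 in juvenile mice, 6 to 18 listed genes, 6 to 20 partner genes and medians of 2.34 to 3.53. Same-numbered libraries of the ages deviated together with r of -0.032 to 0.030 over 4 pairs, so the numbers were not taken to pair the samples. A replicate block gave 35 and 53 genes, 3 listed genes and 1 partner gene.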
